A study of Mus musculus with 21 samples.

Results

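This account concerns the right lung of male C57BL/6 mice at day 14 after left pneumonectomy, the surgical removal of the left lung, against day 0, when no pneumonectomy had been done. It rests on 6 of the 21 arrays of the series, taken by their labels: 3 of day 14 and 3 of day 0. In each condition 1 array held the medial lobe, 1 the cardiac lobe and 1 the whole right lung, so each day 14 array was set against the day 0 array of its own region. The other 15 arrays, of days 3, 7, 28 and 56 after left pneumonectomy and of day 56 after sham surgery, entered the fit for its estimate of the spread. The day 3, 7, 28 and sham arrays were also compared with day 14 directly. Day 0 is an unoperated control, so that surgery and the loss of the lung differ together between day 0 and day 14; the sham arrays were taken only at day 56. The series title asks whether the growing lung passes through phases of lost differentiation and repeated development. No label ties the arrays to single animals, shared animals or pools. With 1 array per condition and region, the p-values rest on how unevenly the conditions differ across the 3 regions, pooled over all 21 arrays. That spread mixes true differences between regions with noise of single arrays, which may be partly technical, and is not a spread between known replicate animals. All levels are log2 expression values and all differences are day 14 minus the control on that scale, with the standard error of the fitted difference after ±, unless a fold is named.

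After left pneumonectomy the remaining lobes of a rodent lung enlarge and add alveoli, a process called compensatory growth. New alveolar walls need a scaffold: elastin is deposited on microfibrils and, with collagen, is cross-linked by lysyl oxidases, while metalloproteinases and their inhibitors govern its turnover. The lung also carries its own circadian clock, in which Arntl (BMAL1) with CLOCK drives the Per, Cry and Nr1d genes and the D-box factors Dbp, Tef and Hlf, whose products feed back on Arntl and on one another.

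The arrays carried the markers of lung. Over the 6 arrays Sftpc, the surfactant protein of alveolar type II cells, ran from 13.29 to 13.43 and Scgb1a1, the secretory protein of club cells, from 12.83 to 13.40. Ager of alveolar type I cells ran from 12.16 to 12.60 and Cldn5 of endothelium from 10.72 to 11.24. Small nuclear and nucleolar RNAs, 59 in all, averaged 6.90, 6.93 and 7.77 in the medial lobe, cardiac lobe and whole lung of day 0, and 7.12, 7.35 and 9.0 in those of day 14. The day 14 whole lung also had the narrowest values of the 6 arrays, with an interquartile range of 3.51 against 3.76 to 3.86 in the other 5. The part of this difference in the results was not tested beyond a fit of the lobes alone. In a tissue sample, fewer cells of a type and less RNA per cell cannot be told apart.

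At day 14, 240 of 19938 genes differed from day 0 (adjusted p under 0.05, 1.2% of genes), 99 of them higher (0.497%) and 141 lower (0.707%). All 240 changed in the same direction in the 3 regions, which a pass in this test makes likely by itself. Of all genes 20% were higher and 16.7% lower in all 3 regions. The median fold was 1.55 among the higher genes and 1.66 among the lower, and 17 rose and 28 fell by over 2-fold. The 12 largest rises were those of Prg4, Spon2, Eln, Arntl, Timp1, Tnc, Sprr1a, Mmp19, Fam124b, Lox, Mest and Mmp2. Spon2, Eln, Timp1, Tnc, Mmp19, Lox and Mmp2 among them encode matrix proteins or enzymes and inhibitors that act on the matrix. The 12 largest falls were those of Dbp, Per2, Ciart, Cxcl9, Per3, Ms4a1, Spib, Ifi209, Ifit3b, Tef, Dapl1 and Cd3g, which are clock genes, lymphocyte genes and interferon-induced genes, together with Dapl1. When each array was centred on its median, which moved the median difference of all genes from 0.01 to 0.06, 134 genes were higher and 126 lower. The count rested on all 6 arrays: it was 152, 95 and 136 without the day 0 medial, cardiac or whole lung array, and 83, 149 and 132 without those of day 14. In the lobes alone 26 of the 54 passing genes chosen by the naming rule lost their call: Eln, Sprr1a, Lox, Ifi209, Dapl1, Cd3g, Itgbl1, P4ha3, Ltbp2, Mfap5, Inmt, Abcg2, Ccr7, Siglech, Cd3e, Cd3d, Cd79a, Bank1, Fcmr, Ifit3, Hsp90aa1, Klf9, Igf1, F3, Wwtr1 and Adh7, with adjusted p from 0.0531 (Itgbl1) to 0.222 (Dapl1). The count of all genes was 90 without the region term that pairs the arrays, 100 in the lobes alone, and 811 without the day 7 cardiac lobe and day 56 pneumonectomy whole lung arrays, which lie outside this comparison but enter its estimate of the spread.

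**Figure D1:**
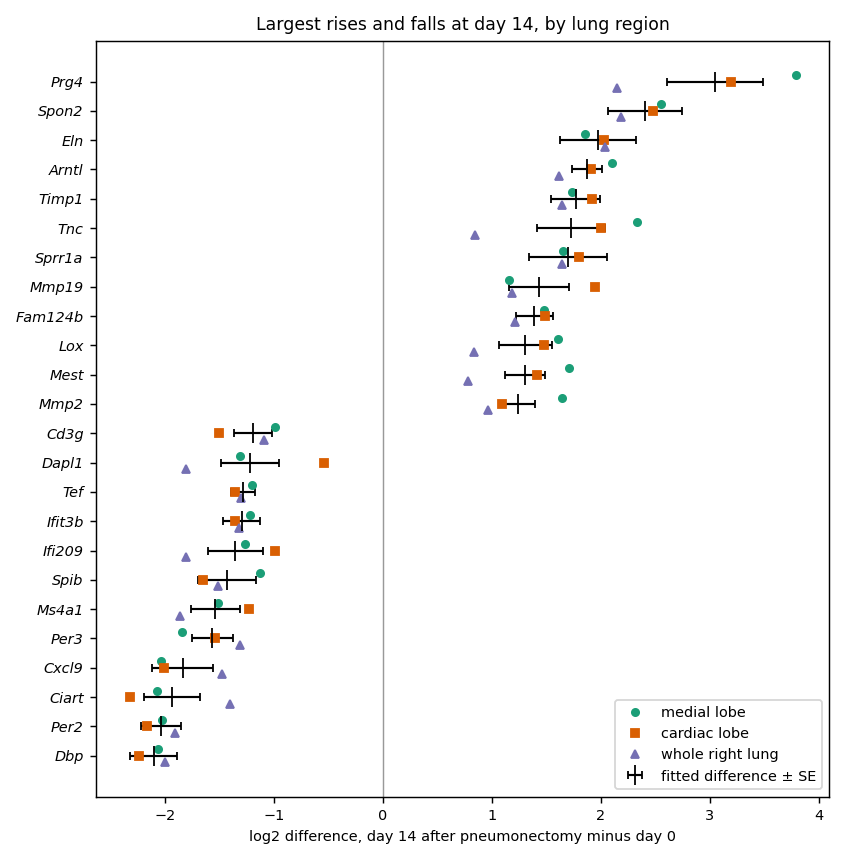
Log2 differences between day 14 and day 0 (x axis) of the 12 genes with the largest rises and the 12 with the largest falls (y axis). Coloured points are single regions (1 array minus 1 array) and black bars the fitted difference ± SE, from Prg4 at 3.04 to Dbp at -2.10. Every point of a gene lies on the same side of 0 because the genes were chosen to have 1 sign in all 3 regions.

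Genes that build and cross-link the elastic and collagen scaffold were higher at day 14. Of 15 elastic fibre genes, 3 rose and none fell, 20% of the list against 1.2% of all genes. The list median was 0.31 against 0.01 for all genes. Elastin itself, Eln, stood at 8.18, 8.26 and 8.46 in the medial lobe, cardiac lobe and whole lung at day 0 and at 10.03, 10.29 and 10.50 at day 14. The groups did not overlap, and the 3 regions moved by nearly the same step: the difference was 1.97 ± 0.35, 3.93-fold (adjusted p = 0.00851). Here and below, genes said not to overlap had already passed, and the share of all genes without overlap was not counted. Ltbp2, a microfibril-associated protein related to the TGF-beta binding proteins, rose by 0.92 ± 0.15 (adjusted p = 0.00659), and Mfap5, a microfibril glycoprotein, by 0.91 ± 0.18 (adjusted p = 0.0196). The other 12 members, among them Emilin1 (0.49), Mfap4 (0.51) and Fbln5 (-0.04), did not pass. The call of Eln was lost without the day 14 medial lobe (adjusted p = 0.0604) or the day 0 cardiac lobe (0.0569); without the day 14 medial lobe no member of this list passed, nor did any in the lobes alone.

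Genes of collagen cross-linking and folding rose. Of 24 genes of fibrillar collagens and their processing, 4 rose and none fell, 16.7% of the list against 1.2% of all genes. The median was 0.41, and 20 of the 24 were higher in all 3 regions, which 20% of all genes were. Lox, a lysyl oxidase that cross-links collagen and elastin, went from 7.83, 8.05 and 8.15 to 9.43, 9.53 and 8.98, a difference of 1.31 ± 0.24 (adjusted p = 0.0118). Its relative Loxl1 went from 8.24, 8.54 and 8.79 to 9.31, 9.43 and 9.46 (0.87 ± 0.11, adjusted p = 0.00106). Every day 14 array of both genes lay above every day 0 array. Serpinh1, the collagen chaperone of the endoplasmic reticulum, rose by 0.75 ± 0.12 (adjusted p = 0.00477) and P4ha3, a prolyl hydroxylase subunit, by 0.94 ± 0.21 (adjusted p = 0.0357). Col1a1 and Col3a1, chains of the main fibrillar collagens, had differences of 1.18 ± 0.40 (adjusted p = 0.224) and 0.96 ± 0.38 (adjusted p = 0.341), larger than that of Loxl1 but with wider errors. Lox lost its call without the day 0 medial, day 14 medial or day 0 cardiac array (largest adjusted p = 0.0855), P4ha3 without any 1 of the 6 arrays (largest 0.187), and the list held 2 to 5 passing genes over these omissions: 2 without the day 0 medial, day 14 medial or day 0 cardiac array. Without the day 7 cardiac lobe and day 56 pneumonectomy whole lung arrays 13 of the 24 passed. Against sham no gene of the elastic fibre or collagen lists passed, and the list medians were 0.16 and 0.14. Lox differed from sham by 0.73, Loxl1 by 0.51, Ltbp2 by 0.44 and Serpinh1 by 0.12.

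Among 18 matricellular proteins, secreted proteins that act on cells from within the matrix, Spon2 and Tnc rose, 11.1% of the list against 1.2% of all genes. Spon2 (spondin 2) went from 5.77, 5.91 and 5.95 to 8.32, 8.38 and 8.14, an increase of 2.41 ± 0.34 or 5.3-fold (adjusted p = 0.00231), and the arrays of each group lay close together. Tnc, tenascin C, a glycoprotein of growing and healing tissue, went from 5.48, 5.88 and 6.15 to 7.81, 7.89 and 7.00 (1.73 ± 0.31, adjusted p = 0.00976). The medial lobe was higher by 2.33, the cardiac lobe by 2.0 and the whole lung by 0.85, and the call was lost without the day 0 medial, day 14 medial or day 0 cardiac array (largest adjusted p = 0.0814) or without the region term (0.0896).

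Proteases of the matrix and an inhibitor of them rose together. Of 22 genes of this list 3 rose and none fell, 13.6% against 1.2% of all genes, with a median of 0.39. Mmp2, the gelatinase A of mesenchymal cells, went from 8.51, 9.25 and 9.06 to 10.16, 10.34 and 10.02 (1.24 ± 0.16, adjusted p = 0.00107). Timp1, an inhibitor of metalloproteinases, went from 7.59, 7.8 and 7.93 to 9.33, 9.73 and 9.57 (1.77 ± 0.23, adjusted p = 0.00106). In both genes the lowest day 14 array lay well above the highest day 0 array. Mmp19, another metalloproteinase, rose by 1.43 ± 0.27 (adjusted p = 0.0145), most in the cardiac lobe, from 7.91 to 9.86; its call was lost without the day 14 medial, day 0 cardiac, day 14 cardiac or day 0 whole lung array (largest adjusted p = 0.0876) or without the region term (0.0944).

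The largest rise of all was that of Prg4, lubricin, the lubricant made by joint lining and mesothelium, the cell sheet that covers the lung. It went from 5.44, 5.46 and 6.65 to 9.23, 8.65 and 8.80, a difference of 3.04 ± 0.44 or 8.24-fold (adjusted p = 0.00292). The remaining 13 mesothelium genes did not pass and had a smaller range, from -0.15 (Gpm6a) to 0.54 (Msln); Wt1, the transcription factor that marks these cells, differed by 0.28 ± 0.16 (adjusted p = 0.559). Sprr1a, a cornified envelope precursor of stressed epithelia, rose by 1.70 ± 0.36 (adjusted p = 0.0273), but the call was lost without any 1 of the 6 arrays (largest adjusted p = 0.137).

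Few growth factor genes differed. Igf1, insulin-like growth factor 1, went from 7.63, 7.92 and 7.93 to 8.39, 9.28 and 9.12 (1.10 ± 0.14, adjusted p = 0.00106); it was the only gene of 20 in the IGF system that passed, and the call was lost without the region term (adjusted p = 0.138) or in the medial and cardiac lobes alone (0.0691). Tgfb3, a TGF-beta ligand, rose by 0.72 ± 0.11 (adjusted p = 0.00382), alone among 27 genes of TGF-beta and BMP signalling, and did not pass without the region term (0.0804). Mest, an imprinted gene of growing mesoderm, went from 6.19, 6.47 and 6.17 to 7.90, 7.88 and 6.96 (1.30 ± 0.18, adjusted p = 0.00231), the only one of 16 imprinted growth genes to pass. Wnt2b, a WNT ligand of mesenchyme, fell from 7.17, 7.57 and 7.91 to 6.16, 6.62 and 6.91 (-0.99 ± 0.16, adjusted p = 0.00568), by almost the same step in each region, and was the only one of 28 WNT genes to pass; without the region term its adjusted p was 0.0962. Wwtr1, which encodes TAZ, a transcriptional coactivator of the Hippo pathway, rose by 0.35 ± 0.06 (adjusted p = 0.00886), and F3, tissue factor, in the same list of 14, fell by 0.83 ± 0.18 (adjusted p = 0.0276). Inmt, an N-methyltransferase abundant in lung, fell by 0.55 ± 0.10 (adjusted p = 0.0108). Itgbl1, an integrin beta-like secreted protein, rose by 1.17 ± 0.22 (adjusted p = 0.0127). Adh7, a retinol-oxidising alcohol dehydrogenase, fell by 0.84 ± 0.14 (adjusted p = 0.00758), the only passing gene of 18 in retinoid metabolism, and Abcg2, a transporter that marks side-population cells, fell by 0.36 ± 0.07 (adjusted p = 0.0161), the only one of 16 basal and stem cell genes. The calls of Wwtr1, F3, Inmt, Itgbl1, Adh7 and Abcg2 each ended on omission of at least 1 of the 6 arrays, and also when the region term was dropped.

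**Figure D2:**
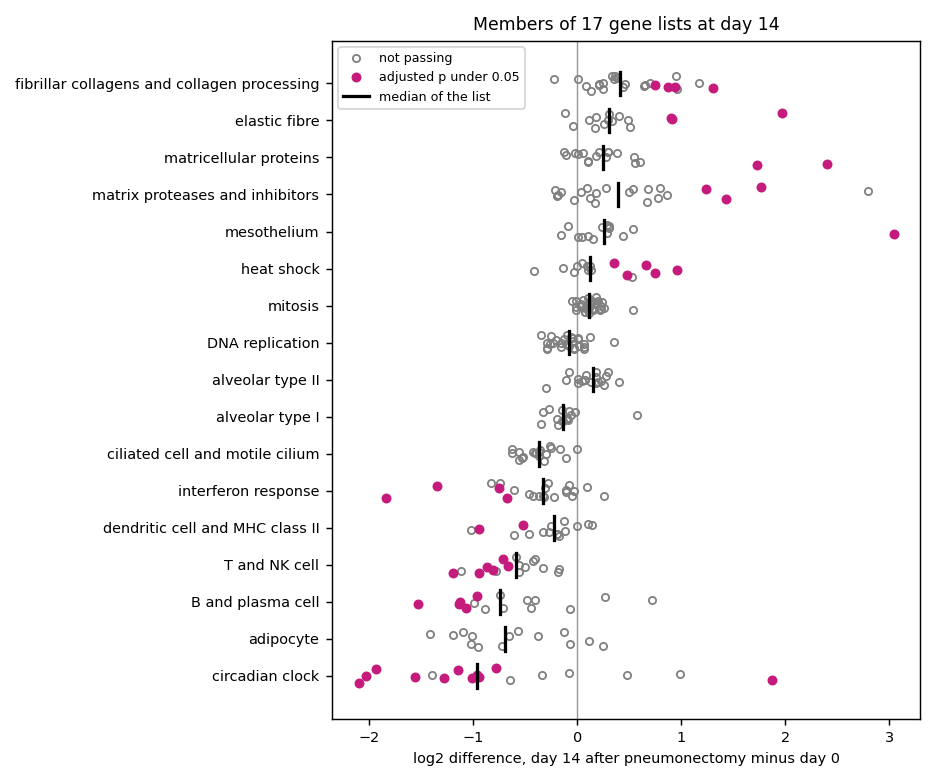
Log2 differences between day 14 and day 0 (x axis) of every measured member of 17 gene lists (rows). Filled points passed at an adjusted p under 0.05, open points did not, and black bars are list medians; they run from -0.96 for the clock list to 0.41 for collagens, and the mitosis and DNA replication rows hold no filled point.

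The clock genes made the most coherent group. Of 17 clock genes 1 rose and 10 fell, 64.7% of the list against 1.2% of all genes, with a median of -0.96. Arntl, the activator, stood at 6.13, 6.21 and 6.11 at day 0 and at 8.23, 8.11 and 7.72 at day 14; the rise of 1.87 ± 0.14 had the smallest adjusted p of the comparison (8.32e-06). Per2, a repressor of the loop, fell from 9.11, 8.99 and 8.86 to 7.08, 6.83 and 6.96 (-2.03 ± 0.18, adjusted p = 5.56e-05). Dbp, an output factor that binds D-boxes, fell from 10.24, 10.26 and 10.23 to 8.18, 8.02 and 8.23 (-2.10 ± 0.22, adjusted p = 0.000194). In these 3 genes the arrays of a group lay far closer to one another than to those of the other group. Per3 fell by 1.56 ± 0.18, Ciart, a repressor of CLOCK and BMAL1, by 1.93 ± 0.26, and Tef by 1.28 ± 0.11. The nuclear receptors Nr1d1 and Nr1d2, which repress Arntl, fell by 0.94 ± 0.15 and 1.14 ± 0.14, and Bhlhe41, Hlf and Cry2 by 1.01 ± 0.16, 0.96 ± 0.17 and 0.78 ± 0.12. The 6 members that did not pass were Clock (0.48 ± 0.16), Nfil3 (0.99 ± 0.27), Per1 (-1.39 ± 0.43), Bhlhe40 (-0.64 ± 0.18), Cry1 (-0.34 ± 0.11) and Rora (-0.08 ± 0.14). Left out 1 at a time, no array changed the number of falling clock genes by more than 1, from 10 to 9.

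The clock pattern did not follow the days after surgery alone. Mean Arntl was 6.66, 6.29, 6.39 and 5.87 at days 3, 7, 28 and 56 after pneumonectomy, near day 0, but 8.25 in the sham arrays, near day 14. Mean Per2 was 7.23 in sham against 8.02 to 8.91 on those other days, and mean Dbp 7.71 against 9.45 to 10.15. Nr1d2 shared this course, at 8.98 in sham, 9.24 at day 14 and 10.24 at day 28, but not every clock gene did. Mean Cry2 was already 8.43 and 8.50 at days 3 and 7, near its 8.36 at day 14 and 8.54 in sham. Mean Nfil3 was 7.99 and 7.74 at days 3 and 7 against 7.82 at day 14. Mean Per1 was 9.10 in sham, with single arrays from 7.78 to 9.82, against 8.32 at day 14 and 9.72 at day 0. Set against sham instead of day 0, none of the 17 clock genes passed, the median difference was -0.08, and 9 were opposite in sign to the difference from day 0. Of those that had passed against day 0 these were Arntl (-0.23 ± 0.14), Dbp (0.43 ± 0.22), Per3 (0.10 ± 0.18), Nr1d1 (0.41 ± 0.15), Nr1d2 (0.26 ± 0.14) and Bhlhe41 (0.37 ± 0.16), and of the others Clock (-0.08 ± 0.16), Nfil3 (-0.27 ± 0.27) and Bhlhe40 (0.05 ± 0.18). The labels give no hour of tissue collection. The comparisons with day 0 and with sham share the day 14 arrays.

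Promoter sequences, from 250 bases before to 50 after the annotated start, were read for 15 of the 17 clock genes from RefSeq (GRCm38.p6) and searched on both strands for 3 strings that do not overlap one another: CACGTG, the E-box that CLOCK and BMAL1 bind and which reads the same on both strands; TTATGTAA, a D-box, bound by Dbp, Tef and Hlf; and TAGGTCA, the core of the element bound by ROR and Nr1d receptors. A match describes the letters and does not show binding. Of the 32851 windows 7.15% held CACGTG, 0.938% TTATGTAA and 2.61% TAGGTCA. Counting a gene once over its windows, CACGTG lay in 9.5% of the measured genes with a window, in 17.7% of the 113 lower genes with a window and in 10.3% of the 68 higher genes with a window. TAGGTCA lay in 2.63%, 4.42% and 7.35% of the same 3 sets, which is 5 lower and 5 higher genes. TTATGTAA lay in 0.999%, 3.54% and none. These shares were not tested, and the clock genes are among the genes counted. The stretches below, 5′ to 3′ on the gene's own strand with the matched string in capitals, are shown for clock genes that passed and for Klf15 and Fam124b, which also changed at day 14; positions count from the annotated start.
Arntl, which rose, chr7:113207531-113207560 (+), TAGGTCA from base 31 after the start: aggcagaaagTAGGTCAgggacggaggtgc
Fam124b, which rose, chr1:80213945-80213988 (-), TAGGTCA at -19: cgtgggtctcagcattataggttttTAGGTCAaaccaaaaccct
Ciart, which fell, chr3:95882314-95882369 (-), CACGTG at -116: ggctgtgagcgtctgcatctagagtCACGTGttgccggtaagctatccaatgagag
Bhlhe41, which fell, chr6:145865543-145865598 (-), CACGTG at -153: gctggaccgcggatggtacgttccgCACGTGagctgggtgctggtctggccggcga
Tef, which fell, chr15:81802521-81802576 (+), CACGTG at -127: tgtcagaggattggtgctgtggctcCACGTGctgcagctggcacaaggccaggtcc
Klf15, which fell, chr6:90462379-90462434 (+), CACGTG at -172: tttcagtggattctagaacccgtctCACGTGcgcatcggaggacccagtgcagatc
Per3, which fell, chr4:151044838-151044895 (-), TTATGTAA at -205: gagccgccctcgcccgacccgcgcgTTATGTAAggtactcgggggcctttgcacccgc
Per3, which fell, chr4:151044791-151044848 (-), TTATGTAA at -158: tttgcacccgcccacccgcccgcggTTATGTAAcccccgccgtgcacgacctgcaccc
Ciart and Klf15 held 2 further CACGTG strings each, at -58 and -44 and at -228 and -3. Tef held another before a second start, at -138. Cxcl9, which is not shown and which fell, held TAGGTCA at -86. The windows of Dbp, Nr1d1, Nr1d2, Hlf and Cry2 held none of the 3 strings.

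Fam124b, a gene of little known function, went from 5.64, 5.85 and 5.38 to 7.12, 7.34 and 6.59 (1.39 ± 0.17, adjusted p = 0.000913), and its sham mean of 6.89 lay near day 14. Spon2 shared this course in part: its sham mean was 8.0, but it also stood at 7.94 at day 3 and 7.40 at day 7. Other lower genes whose products are tied to the clock or to its outputs, chosen after their values were seen, were Wee1, the kinase that holds cells before mitosis (-1.05 ± 0.16, adjusted p = 0.00387), Usp2, a ubiquitin-specific protease (-1.0 ± 0.20, adjusted p = 0.0176), and Pfkfb3, a regulator of glycolysis (-1.06 ± 0.13, adjusted p = 0.00106). Rgcc, a cell cycle regulator chosen in the same way, was also lower (-1.16 ± 0.17, adjusted p = 0.00349). The sham means of Wee1, Usp2 and Pfkfb3, at 8.35, 7.76 and 8.16, lay between the day 14 and the day 0 levels and nearer to day 14. That of Rgcc, at 9.66, lay nearer to its day 0 mean of 10.12 than to its day 14 mean of 8.96. These genes were already lower at days 3 and 7. Wee1 averaged 8.93 and 8.96 there against 9.23 at day 0, and Usp2 7.91 and 7.94 against 8.48. Pfkfb3 averaged 8.29 and 8.13 against 8.94, at day 7 just below sham, and Rgcc 9.02 and 9.42.

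Of 18 glucocorticoid and fasting response genes, 2 fell and none rose, 11.1% of the list against 1.2% of all genes. Klf15, a factor induced by glucocorticoids and fasting, fell from 8.94, 8.83 and 8.71 to 7.98, 7.56 and 7.70 (-1.08 ± 0.10, adjusted p = 9.29e-05), without overlap. It stood high in sham, at 8.55, and low at days 3 and 7, at 7.77 and 7.98. Klf9, a related factor, fell by 0.68 ± 0.12 (adjusted p = 0.0104); its call was lost without the day 14 medial, day 0 cardiac or day 14 cardiac array (largest adjusted p = 0.0806).

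Heat shock genes were higher at day 14 in 5 of 15 cases and lower in none, 33.3% against 1.2% of all genes. The list median was 0.13. Serpinh1, 1 of the 5, is also counted in the collagen list. Hsph1, a large HSP110 chaperone, went from 8.29, 8.03 and 8.26 to 9.18, 9.24 and 9.04 (0.96 ± 0.13, adjusted p = 0.00226). Hsp90aa1, the inducible cytosolic HSP90, rose by 0.48 ± 0.08 (adjusted p = 0.00659), Hspb1, a small heat shock protein, by 0.66 ± 0.15 (adjusted p = 0.0373), and Serpinh1 and Hspa5, chaperones of the endoplasmic reticulum, by 0.75 ± 0.12 and 0.35 ± 0.07. Hspa1a, the inducible HSP70 with a near-identical copy, had a difference of 0.53 ± 0.29 (adjusted p = 0.553). Sham again stood with day 14: its means were 9.52 for Hsph1 and 11.93 for Hsp90aa1, and against sham the differences were -0.37 ± 0.13 and -0.16 ± 0.08, opposite in sign, with no member passing. Between 2 and 5 members passed when arrays were left out in turn, 2 without the day 14 medial lobe and 3 without the day 0 medial or cardiac lobe; Hspb1 kept its call only without the day 14 whole lung.

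**Figure D3:**
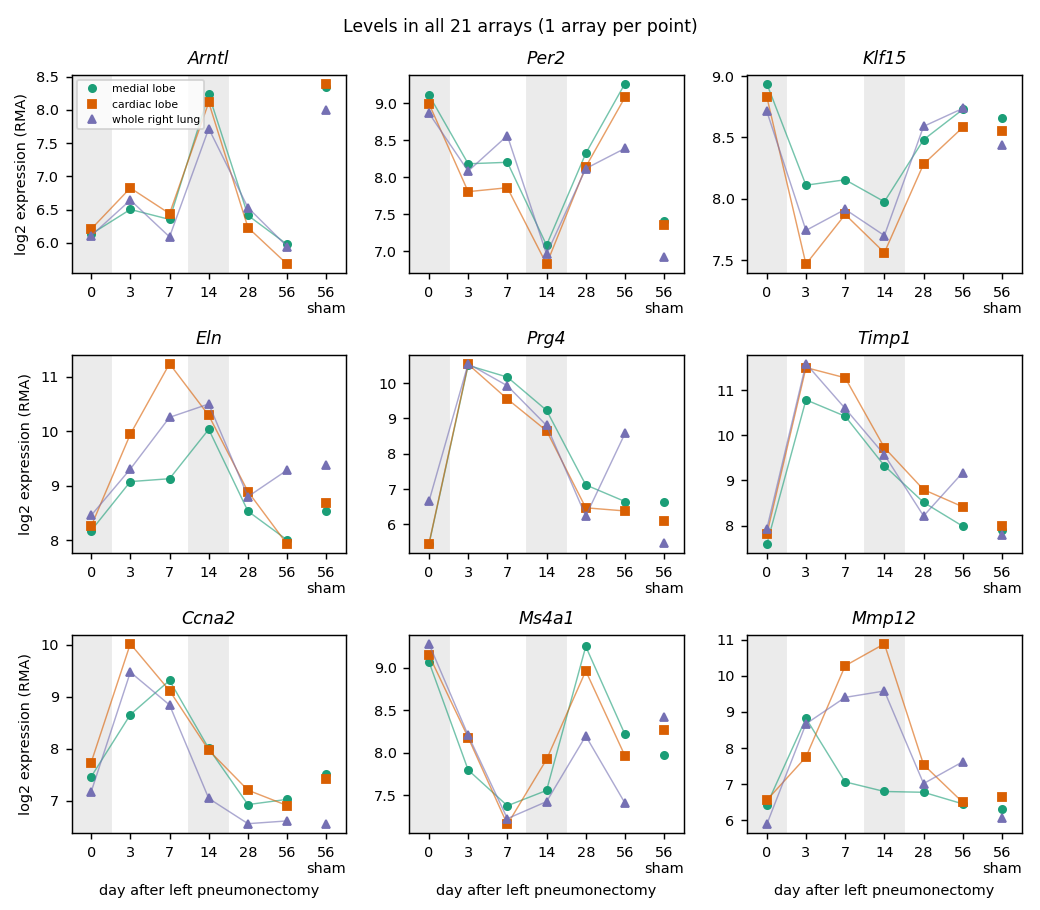
Log2 expression (y axis) of 9 genes in all 21 arrays, by day after left pneumonectomy and in day 56 sham (x axis); each point is 1 array, coloured by region, and grey bands mark day 0 and day 14. Arntl and Per2 at day 14 lie near sham, whereas Prg4 and Timp1 at day 14 lie between day 3 and sham, and Mmp12 at day 14 is high in the cardiac lobe (10.89) and whole lung (9.58) but not in the medial lobe (6.80).

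Lymphocyte genes were lower at day 14. Among 17 genes of T cells and NK cells 6 fell and none rose, 35.3% of the list against 1.2% of all genes. The median was -0.59, and 16 were lower in all 3 regions, which 16.7% of all genes were. Cd3g, a chain of the T cell receptor complex, went from 7.59, 8.33 and 7.30 to 6.61, 6.83 and 6.21 (-1.19 ± 0.17, adjusted p = 0.00308), and Cd3e, another, from 8.12, 8.51 and 8.55 to 7.38, 7.55 and 7.64 (-0.87 ± 0.14, adjusted p = 0.00529). Cd3d, Cd4, Cd8b1 and Ccr7, the homing receptor of naive T cells, fell by 0.81 ± 0.17, 0.66 ± 0.12, 0.72 ± 0.16 and 0.94 ± 0.19. The cytotoxic and NK cell genes Gzma (-0.59), Prf1 (-0.50), Ncr1 (-1.12) and Nkg7 (-0.78) did not pass. The mean of the 17 genes was 7.51, 7.77 and 7.46 in the day 0 medial, cardiac and whole lung arrays and 6.89, 7.11 and 6.83 in those of day 14, without overlap. Leaving out arrays left 2 to 4 passing genes, 2 without the day 14 medial or day 0 cardiac lobe and 3 without the day 14 cardiac or day 0 whole lung array, and in the lobes alone none passed.

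B cell genes were lower as well. Among 15 genes of B cells and plasma cells 5 fell and none rose, 33.3% against 1.2% of all genes, with a median of -0.74. Ms4a1, which encodes CD20, went from 9.07, 9.15 and 9.28 to 7.55, 7.92 and 7.42 (-1.53 ± 0.23, adjusted p = 0.00349). Cd79a and Cd79b, the signalling chains of the B cell receptor, fell by 1.13 ± 0.20 and 0.96 ± 0.16, Bank1, a B cell scaffold protein, by 1.13 ± 0.18, and Fcmr, the IgM receptor, by 1.06 ± 0.21. Jchain, the joining chain made by plasma cells, pointed the other way at 0.72 and Xbp1, the plasma cell factor, lay at -0.07; neither passed. The mean of the list was 7.8, 8.10 and 8.28 at day 0 and 7.33, 7.51 and 7.42 at day 14. Spib, an ETS factor of B cells and plasmacytoid dendritic cells, fell by 1.43 ± 0.27 (adjusted p = 0.013), and Dapl1 by 1.22 ± 0.26 (adjusted p = 0.0312). Spib lost its call without the day 14 medial, day 0 cardiac, day 0 whole lung or day 14 whole lung array (largest adjusted p = 0.0908), and Dapl1 without any 1 of the 6 except the day 14 cardiac lobe (0.186) or without the region term (0.0534). In sham Ms4a1 averaged 8.22 and Cd3g 6.86, between day 14 and day 0, and against sham no gene of either lymphocyte list passed. The B cell list held 3 to 6 passing genes over the omissions (3 without the day 0 cardiac lobe), and 2 in the lobes alone.

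Some interferon-induced genes and a few genes of the dendritic cell list were also lower. Of 22 interferon response genes 4 fell and none rose, 18.2% against 1.2% of all genes, with a median of -0.33. Cxcl9, a T cell chemoattractant induced by interferon gamma, went from 8.01, 8.37 and 7.55 to 5.98, 6.36 and 6.08 (-1.84 ± 0.28, adjusted p = 0.00387), without overlap. Ifi209 fell by 1.35 ± 0.25 (adjusted p = 0.0131), Ifit3 by 0.75 ± 0.16 (adjusted p = 0.0273) and Ifit1 by 0.68 ± 0.14 (adjusted p = 0.0218); Ifit3b, outside the list, fell by 1.29 ± 0.17 (adjusted p = 0.0013). Ifit3 and Ifit3b, and Ifi209 and its neighbours, are near-identical relatives, so the copy is uncertain. The cell-intrinsic antiviral genes Oas2 (0.26), Mx1 (-0.03) and Rsad2 (0.10) did not pass. Of 16 dendritic cell and MHC class II genes Ccr7 and Siglech, a receptor of plasmacytoid dendritic cells, fell, 12.5% against 1.2% of all genes. Ccr7 is also counted among the T and NK cell genes above, so Siglech was the only passing gene not counted there. The class II chain H2-Aa (-0.13) and Cd74 (-0.01) did not pass. In sham Cxcl9 averaged 6.24, at the day 14 level. The interferon list held 1 or 2 passing genes whenever 1 of the 6 arrays was left out (1 without the day 14 medial, day 0 whole lung or day 14 whole lung array); the dendritic cell list held none without the day 14 medial, day 0 cardiac or day 0 whole lung array.

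Fat cell genes moved in the same direction without passing. Their list of 14 had a median of -0.69, with Adipoq at -1.42, Retn at -1.10 ± 0.29 (adjusted p = 0.0858) and Plin4 at -0.96 ± 0.27 (adjusted p = 0.121). The mean of the list was 8.05, 7.70 and 8.87 at day 0 and 7.47, 7.50 and 7.74 at day 14, lower in each region and overlapping between groups, while the cardiac muscle list overlapped, at 7.86, 7.48 and 7.70 against 7.14, 7.65 and 7.27. B cells and T cells also reside in fat, and the part of attached fat in the lymphocyte result was not tested.

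Cell division genes stood near their day 0 level. None of 29 mitosis genes and none of 27 DNA replication genes passed, with medians of 0.11 and -0.08. Ccna2, cyclin A2, stood at 7.46, 7.73 and 7.17 at day 0 and at 8.0, 7.97 and 7.04 at day 14, with overlap (0.22 ± 0.25, adjusted p = 0.806). Top2a, the topoisomerase of dividing cells, differed by 0.06 ± 0.23, Plk1, a mitotic kinase, by 0.18 ± 0.20, and Rrm2, a subunit of ribonucleotide reductase, by 0.02 ± 0.20. The members with the smallest p were Bub1 (0.54 ± 0.29) and Tpx2 (0.23 ± 0.19) of mitosis and Tyms (0.35 ± 0.16) and Pola1 (-0.29 ± 0.13) of replication.

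The epithelial and endothelial lists held no passing gene. Sftpc differed by 0.01 ± 0.07, and the alveolar type II members with the smallest p were Lpcat1 (0.40 ± 0.15), an enzyme of surfactant lipid synthesis, and Abca3 (0.25 ± 0.11), its transporter. In alveolar type I cells Hopx differed by -0.14 ± 0.09 (adjusted p = 0.642) and Igfbp2 by 0.57 ± 0.19 (adjusted p = 0.221). Ciliated cell genes had a median of -0.37, and 11 of 19 were lower in all regions, which 16.7% of all genes were. Among them were Hydin (-0.56 ± 0.25) and Cfap43 (-0.63 ± 0.16, adjusted p = 0.0699), both parts of the cilium. Against sham the list median was 0.06, with Hydin at 0.23 and Cfap43 at 0.04. The mean of the ciliated list was 8.86, 8.33 and 8.76 at day 0 and 8.25, 8.26 and 8.29 at day 14, nearly level in the cardiac lobe. Of 22 endothelial genes Ednrb (-0.52 ± 0.22) and Ramp2 (-0.27 ± 0.12) had the smallest p. None of 34 branching and patterning genes passed; Rarb, a retinoic acid receptor, differed by -0.72 ± 0.18 (adjusted p = 0.0713), Wnt2 by -0.28 ± 0.12 and Osr1 by 0.10 ± 0.19. No basement membrane gene passed, with Col4a1 at 0.73 ± 0.24 and Lama1 at 0.27 ± 0.09, and no myofibroblast gene, with Aspn at 0.74 ± 0.30 and Pdgfrb at 0.37 ± 0.19.

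Several macrophage and inflammation genes stood high in 2 of the 3 regions at day 14. Mmp12, the macrophage elastase, was 6.43, 6.56 and 5.89 at day 0 and 6.80, 10.89 and 9.58 at day 14: the medial lobe lay near its day 0 level and the cardiac lobe and whole lung far above theirs (2.80 ± 0.72, adjusted p = 0.0783). Arg1, the arginase of alternatively activated macrophages, was likewise low in the medial lobe, with 5.52, 5.75 and 5.79 at day 0 and 5.78, 8.16 and 8.99 at day 14 (adjusted p = 0.376). Ccl24, an eosinophil-attracting chemokine, was 5.10, 6.88 and 7.42 at day 14 against 4.98 to 5.22 at day 0. Chil4, whose copy among the chitinase-like genes is uncertain, was 5.64, 7.41 and 8.19 against 5.46 to 6.03. The medial lobe thus lay within or near the day 0 range in all 4 genes. With 1 array per region and condition, a difference between regions has no test. Saa3, an acute-phase serum amyloid, stood at 7.90, 9.60 and 9.28 against 6.95, 6.44 and 6.92, a difference of 2.16 ± 0.56 (adjusted p = 0.079). Of 21 neutrophil and acute inflammation genes Timp1 alone passed, although the neutrophil proteins S100a8 and Ngp lay at 1.43 and 1.55; in the lobes alone 5 of the list passed, and 3 without the day 14 whole lung array. No gene of the monocyte, alternatively activated macrophage, alveolar macrophage or complement lists passed; Trem2 (0.79 ± 0.29), Gpnmb (0.87 ± 0.23), Clec7a (0.51 ± 0.14), Ctsk (0.86 ± 0.30), Chil3 (0.56 ± 0.20), Cfb (0.63 ± 0.16) and C4b (0.68 ± 0.19) had the smallest p of these. Clca1, a goblet cell product, varied within each condition, from 6.62 to 9.58 at day 0 and from 7.00 to 11.37 at day 14.

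Of all 48 lists, 21 held a passing member and 27 none, and 55 of 786 distinct listed genes passed, 7% against 1.2% of all genes. The lists were chosen with earlier results of these data known, so this share is a description of them.

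Day 14 was then set against the other days, in comparisons that share the day 14 arrays. Against day 3, 724 genes differed (3.63%), 238 higher and 486 lower at day 14; the count was 301 with no region term, 93 for the lobes, and ran from 279 without the day 3 whole lung array to 870 without the day 3 medial array. Cell division genes were among the lower ones: 25 of 29 mitosis genes and 20 of 27 replication genes were lower than at day 3, with medians of -1.20 and -0.76. Ccna2 lay 1.71 lower (adjusted p = 0.00158) and Plk1 1.77 lower (adjusted p = 0.000278). The 4 largest falls from day 3 were in acute-phase and myeloid genes: Serpinb2, a plasminogen activator inhibitor, by 3.53 (adjusted p = 0.0036), Saa3 by 3.14 (adjusted p = 0.00473), Cd5l, a macrophage scavenger protein, by 2.75 (adjusted p = 0.0123) and Cxcl2, a neutrophil chemoattractant, by 2.33 (adjusted p = 0.0474). Timp1 fell by 1.75 from its day 3 mean of 11.29 (adjusted p = 0.000796) and stayed above day 0. Wt1 and Osr1, markers of mesothelium and of embryonic mesenchyme, lay 1.08 and 1.69 below day 3 (adjusted p = 0.00158 and 0.000256). The 4 largest rises from day 3 were those of Cst9, a cystatin (2.02, adjusted p = 0.0356), Arntl (1.36, adjusted p = 0.000104), Itgbl1 (1.33, adjusted p = 0.00305) and Nrn1, neuritin (1.31, adjusted p = 0.0256). In addition 5 of 18 alveolar type II genes were higher than at day 3, with a list median of 0.35; they include Lpcat1 (0.70, adjusted p = 0.0124) and Abca3 (0.50, adjusted p = 0.0147).

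Against day 7, 145 genes differed (0.727%), 43 higher and 102 lower. Mitosis genes were again among the lower ones: 16 of 29 were lower, with a median of -0.96, as were 9 of 27 replication genes. Hspa1a (-1.71, adjusted p = 0.0163), the linker histone H1f1 (-1.50, adjusted p = 0.0134), Ccna2 (-1.42, adjusted p = 0.0185) and Top2a (-1.41, adjusted p = 0.0139) had the largest falls. Arntl (1.73, adjusted p = 2.67e-05), Lrat, which esterifies retinol (1.58, adjusted p = 0.042), Fabp1, a fatty acid binding protein (1.35, adjusted p = 0.0289), and Fam124b (1.35, adjusted p = 0.00292) had the largest rises. Eln and Tnc did not differ detectably between these days: their differences were 0.07 and -0.67 (adjusted p = 0.945 and 0.387), and mean Eln was 10.21 at day 7 and 10.27 at day 14. The count moved with the arrays used: 15 genes passed without the region term, 37 in the lobes alone, 39, 72 and 195 without the day 7 medial, cardiac or whole lung array, and 35, 5 and 50 without those of day 14.

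Against day 28, 29 genes differed (0.145%), 20 higher and 9 lower at day 14. The largest rises were those of Spon2 (1.90, adjusted p = 0.0378), Arntl (1.63, adjusted p = 6.1e-05), Fam124b (1.14, adjusted p = 0.00779) and Mest (1.10, adjusted p = 0.0243), and the largest falls those of Dbp (-1.98, adjusted p = 0.000733), Per2 (-1.23, adjusted p = 0.00779), Per3 (-1.16, adjusted p = 0.015) and Nr1d1 (-1.03, adjusted p = 0.00769). Of the 17 clock genes 1 was higher and 6 were lower. Spon2 of the matricellular list passed, as did Plod2 of the collagen list (0.74, adjusted p = 0.0484). Eln, Lox and Prg4 stood higher at day 14 by 1.53, 1.08 and 2.28, amounts that missed the test (adjusted p = 0.121, 0.113 and 0.0583). Without 1 array the count ran from 3, without the day 14 cardiac lobe, and 4, without the day 14 medial lobe, to 40, without the day 28 whole lung; it was 16 and 13 without the day 28 medial or cardiac lobe.

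With sham at day 56 as control, 13 genes differed from day 14 (0.0652%), 10 higher and 3 lower, and 3 of the 24 genes with the largest changes against day 0 passed here too. The count was 0 without the region term (595 at an unadjusted p under 0.05) and 60 without the 2 arrays set apart. It was 2, 0 and 0 without the day 14 medial, cardiac or whole lung array and 4, 0 and 19 without those of sham, with 705 to 1281 genes at an unadjusted p under 0.05 in these 6 limma fits. The passing genes include Prg4 (2.82 ± 0.44, adjusted p = 0.0274), Timp1 (1.65 ± 0.23, adjusted p = 0.0139) and Mmp2 (0.97 ± 0.16, adjusted p = 0.032). Igf1 (0.89 ± 0.14), Prr15, a proline-rich protein (0.92 ± 0.13), Cdh3, P-cadherin (0.92 ± 0.16), Folr1, a folate receptor (0.60 ± 0.09), and Rab3c, a vesicle GTPase (0.66 ± 0.08), were higher than both controls. Rab3c stood at 5.42, 5.45 and 5.21 at day 0, at 6.00, 6.20 and 5.87 at day 14 and at means of 5.15 to 5.59 in every other condition. Tbx18 (0.53 ± 0.08) and Ppic (0.50 ± 0.09) were higher than sham, with differences from day 0 of 0.33 and 0.19 that did not pass. Klf15 was lower than sham by 0.80 ± 0.10 (adjusted p = 0.0099), as were Fgf10, a growth factor of lung mesenchyme (-0.57 ± 0.09), and Kcnj3, a potassium channel (-0.81 ± 0.13); Fgf10 and Kcnj3 did not pass against day 0 (0.10 and -0.10). Eln (1.40 ± 0.35, adjusted p = 0.256), Tnc (1.27 ± 0.31, adjusted p = 0.256), Mmp19 (1.08 ± 0.27, adjusted p = 0.294) and Mest (0.97 ± 0.18, adjusted p = 0.0825) kept their direction without passing, and Spon2 (0.28 ± 0.34) and Fam124b (0.12 ± 0.17) stood near the sham level. Sham differs from day 14 in time after surgery as well as in the operation, and these cannot be told apart.

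**Figure D4:**
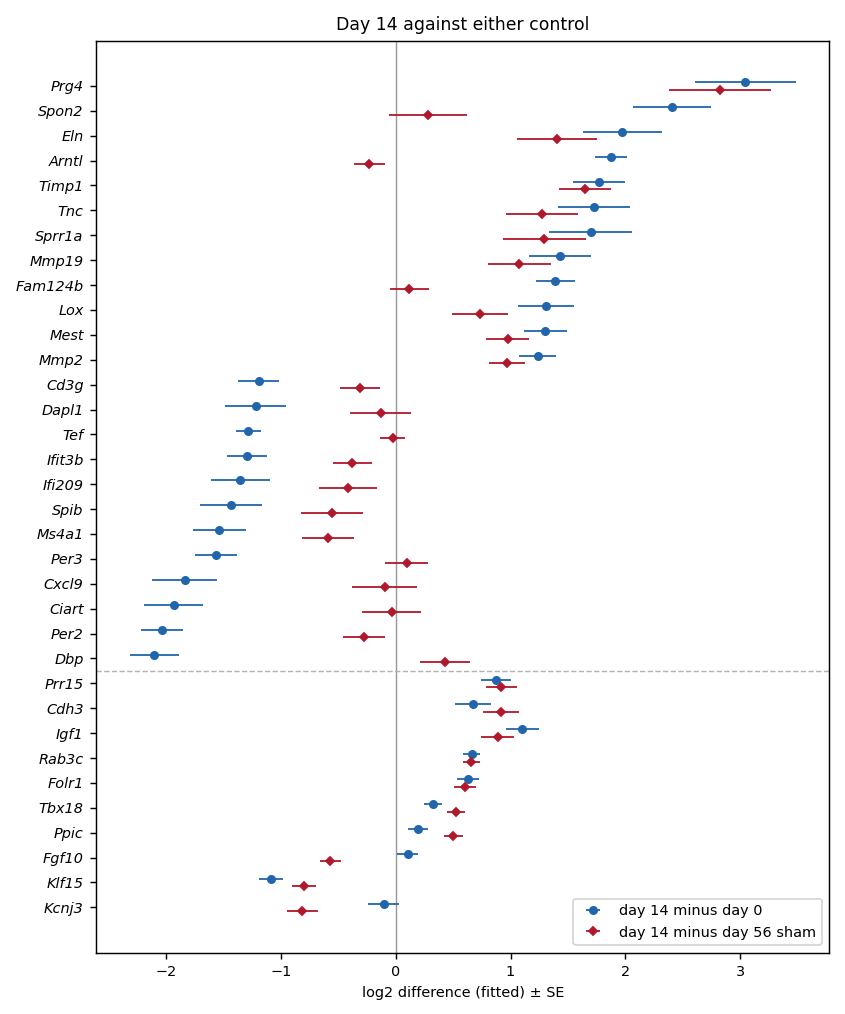
Fitted log2 differences ± SE (x axis) of day 14 minus day 0 (circles) and of day 14 minus day 56 sham (diamonds). Above the dashed line are the 24 genes with the largest changes against day 0, and below it the other genes that passed against sham; Prg4, Timp1 and Mmp2 lie far from 0 against both controls, and the clock genes Arntl, Per2 and Dbp only against day 0.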

How the data were processed

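RNA of 21 arrays with 1 labelled sample each was summarised by the authors with RMA, per the submitters' processing notes, to 1 deposited log2 value per probe set, whose version is not given in the sources used here. Amplification was from the 3' end per the labels' protocols, whereas the platform's annotation describes a whole-transcript design. The platform annotation gave 1 symbol for 21789 of 35556 probe sets, and 19938 genes were tested, 999 of them through the brightest of several probe sets. Values ran from 2.98 to 14.06, and no detection call was given; array number limits the precision.

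With limma 3.58.1 (R 4.3.3), expression in all 21 arrays was modelled on condition plus region, with empirical Bayes moderation, 12 residual degrees of freedom, and Benjamini-Hochberg adjustment over all genes. Each adjusted p is from such a fit. The replicate number is the region by the labels; deviations from condition means correlated at 0.20, 0.22 and 0.53 between the day 0 and day 14 arrays of the same region, and at -0.42 to 0.24 between those of different regions; the pairing is taken from the labels. The procedure was also run on simulated data with independent noise and no region effects or outlying arrays, and no result here rests on that run.

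The genes, lists and comparisons were chosen with earlier results of these data known. Named genes were the 12 largest rises and falls against day 0 and the 4 largest against days 3, 7 and 28 that passed with 1 sign in all 3 regions, up to 4 passing members of each list described (or the 2 with the smallest p), and a fixed panel; predicted genes and small RNAs were passed over. Of the listed genes 66 had no measured gene. Alternatives were no region term, other probe set rules, brighter genes, a trend prior, centring, lobes alone, only the arrays compared, leaving out arrays, and sham as control; the alternatives of the sham comparison were added later. Promoter windows came from RefSeq.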

Additional observations from a re-analysis of the deposited data

Results flagged for a closer look

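The cardiac lobe array of day 7 stood apart from the other 6 cardiac arrays: its interquartile range of log2 values was 3.55, and the gap to the next array exceeded Dixon's limit, which chance exceeds in about 1 of 20 groups. The same limit was applied to the array median, the interquartile range and the small RNA mean of each region, at both ends, and nothing else exceeded it. The interquartile range of the day 56 pneumonectomy whole lung array, which is also set apart below, did not (gap over range 0.34, limit 0.568). The day 7 cardiac array enters the comparison of day 14 with day 0 only through the estimate of the spread. Among the 13767 probe sets with no gene symbol or with several, which the main test left out, 2 passed when tested with the same model, both higher at day 14 (0.0145%); 911 had an unadjusted p under 0.05.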

How the results depend on the processing

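For day 14 versus day 0 (240 genes) the count was 90 without the replicate block (the region term), 100 in the lobes alone, 811 without the 2 arrays set apart (day 7 cardiac lobe and day 56 pneumonectomy whole lung), 13 with sham as control and 83 to 152 with 1 array left out. For day 14 versus day 3 (724) it was 301, 93 and 1386 in the first 3 of these settings, 458 among brighter genes, 214 with only the arrays compared, and 279 to 870 with 1 array left out. For day 14 versus day 7 (145) it was 15, 37 and 89, 82 among brighter genes, 0 by limma with only the arrays compared (1201 genes at an unadjusted p under 0.05), and 5 to 195. For day 14 versus day 28 (29) it was 7 without the block, 47 with only the arrays compared, 141 without the 2 arrays, and 3 to 40. Other settings stayed within 1.5 times these counts. The cause was not tested.

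All 24 genes with the largest changes kept their sign in every setting but sham. They had been chosen to have 1 sign in all 3 regions and these settings reuse the same arrays, so the kept sign is no separate support. Of the 24, 15 kept their call in all of those settings, and with sham 3 changed sign. Of the 54 passing genes chosen by the naming rule, 23 lost the call without the region term, 26 in the lobes alone, and 27 kept it whichever of the 6 arrays was left out. Against sham the difference was opposite for Arntl (-0.23), Dbp (0.43), Per3 (0.10), Nr1d1 (0.41), Nr1d2 (0.26), Bhlhe41 (0.37), Hsph1 (-0.37), Hsp90aa1 (-0.16), Hspa5 (-0.16), Hsp90b1 (-0.0251) and Pdia6 (-0.019), and, among genes that had not passed, for Fgf10 (-0.57), Clock (-0.0829), Nfil3 (-0.27), Bhlhe40 (0.0506), Creld2 (-0.19), Hyou1 (-0.0728), Nrn1 (-0.48), H1f1 (0.45), Pola1 (0.0165), Lama1 (-0.0008), Pdgfrb (-0.19), Cfap43 (0.0419), Ccdc40 (0.0686), Hydin (0.23) and Sftpc (-0.0098). In the lobes alone Lrat (0.16) and Rrm2 (-0.0552) reversed, and H1f1 (0.0249) did after centring. With 1 array left out the sign of small differences turned for Nrn1 (-0.0307 to 0.3874), Lrat (-0.8435 to 0.063), Fabp1 (-0.17 to 0.1732), H1f1 (-0.179 to 0.2027), Top2a (-0.0964 to 0.1879), Rrm2 (-0.0305 to 0.0983), Sftpc (-0.0423 to 0.063) and Osr1 (-0.0181 to 0.1935).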

Other observations

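Chaperones of the endoplasmic reticulum, the compartment where collagen and other secreted proteins fold, formed a further group, chosen after their values were seen and so given as a description. Sdf2l1 went from 9.39, 9.38 and 9.21 at day 0 to 10.16, 10.44 and 9.91 at day 14 (0.84 ± 0.14). Hspa5, Hsp90b1, Pdia6 and Mlec had differences of 0.35 ± 0.07, 0.41 ± 0.09, 0.44 ± 0.08 and 0.42 ± 0.07, all with an adjusted p under 0.05. Pdia4 (0.32 ± 0.09), Creld2 (0.39 ± 0.10) and Hyou1 (0.42 ± 0.12) did not pass against day 0 and did against day 28. Herpud1, which serves degradation of misfolded proteins, pointed the other way (-0.73 ± 0.13). In sham Hspa5 averaged 11.92 and Sdf2l1 9.95, near the day 14 level, and against sham the 9 genes had differences from -0.37 to 0.23, none of them passing.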
